A study of Mus musculus with 3 samples.

Results

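The genes described here are 8 neurotrophic factors and receptors, namely Bdnf, Ntf3, Ntrk2, Ntrk3, Ngfr, Gdnf, Gfra1 and Ret, measured in sorted cells of mouse bone marrow. They were chosen by name, as genes relevant to the sympathetic nerve supply of the marrow, and each was read from the array probesets whose annotation names that gene alone. Such probesets were found for 7 of the 8 genes, with 145 probesets among them, out of 18865 genes that had at least 4 probesets each. Ntf3, which encodes neurotrophin-3, was not analysed here. The samples were 3 Affymetrix arrays of 1 group of freshly isolated C57BL/6 marrow cells, sorted by flow cytometry for GFP driven by the nestin gene promoter. The cells are therefore defined by GFP from that transgene, and there was no second group. The labels give no age or number of animals for a sort, and do not say whether the 3 arrays stand for separate mice. The p-values therefore reflect how far 3 arrays differed, and that spread may be technical only.

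Neurotrophins are secreted proteins that keep neurons alive and guide the growth of their axons, and they are made as larger precursors that proteases cut to the mature form. Each binds a receptor tyrosine kinase of the Trk family, and all of them also bind the p75 receptor, which has no kinase. GDNF and its relatives act through a different complex, in which a co-receptor of the GFRα family holds the ligand and the tyrosine kinase Ret carries the signal into the cell. Sympathetic neurons, which reach the marrow along its arteries, and the Schwann cells that sheathe nerve fibres are well-known users of both systems.

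The labelled population was read against marker lists first. The lists were written with earlier results of these data known, so they give no independent check of it. All 11 measured genes of a perivascular stroma list, among them Lepr, Cxcl12 and Cdh11, lay above background, as did 50.6% of all genes tested. Of 10 leukocyte genes 3 did. These were Lcp2, a signalling adaptor of blood cells, with 8.98, 8.48 and 7.96 on arrays 1, 2 and 3 (adjusted p = 1.17e-05, limma), Rac2 with 7.20, 6.38 and 6.43, and Hcls1 with 6.00, 5.69 and 7.04. Lcp2 was also called against the stricter background introduced further on (adjusted p = 0.000625, limma). Vav1, another signalling gene of blood cells, had 4.22, 4.54 and 4.52 and was not called. Nes itself, whose promoter drives the reporter, had 5.97, 5.21 and 5.56 and was not called (adjusted p = 0.757, limma). Values throughout are the authors' RMA values on the log2 scale, and a gene's value is the median of its probesets on an array. Array 2 stood apart in 1 respect, since all 11 measured endothelial genes were lowest on it. Of these 11 genes 8 were called, and the list had medians of 7.68, 5.88 and 7.84 on arrays 1, 2 and 3.

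With no control group, each gene was set against a background on the same array. That background was 355 olfactory, vomeronasal and bitter taste receptor genes, which belong to sensory cells of the nose and tongue, and their 95th percentile gave thresholds of 5.40, 5.66 and 5.64 on arrays 1, 2 and 3. A gene was called where limma's one-sided test of value minus threshold gave a Benjamini-Hochberg adjusted p below 0.05 over all 18865 genes. By this rule 2 of the 7 measured genes were called, Ngfr and Gfra1, which is 28.6% of them. Among all genes tested 50.6% were called, and among the 355 background genes 9 were (2.54%). The share of background genes is low by construction, since the thresholds were set from them, and it does not measure a rate of false calls. Background genes had a median of 5 probesets, compared with 13 over all genes tested. Values above the threshold on all 3 arrays were found for 3 of the 7 genes, Ngfr, Gfra1 and Ret (42.9%), and for 55.0% of all genes. The median margin over the threshold was 0.20 for these 7 genes and 0.50 for all genes tested. A missing call does not show that a transcript was absent, and levels of different genes are not ranked, since their probes differ.

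**Figure D1:**
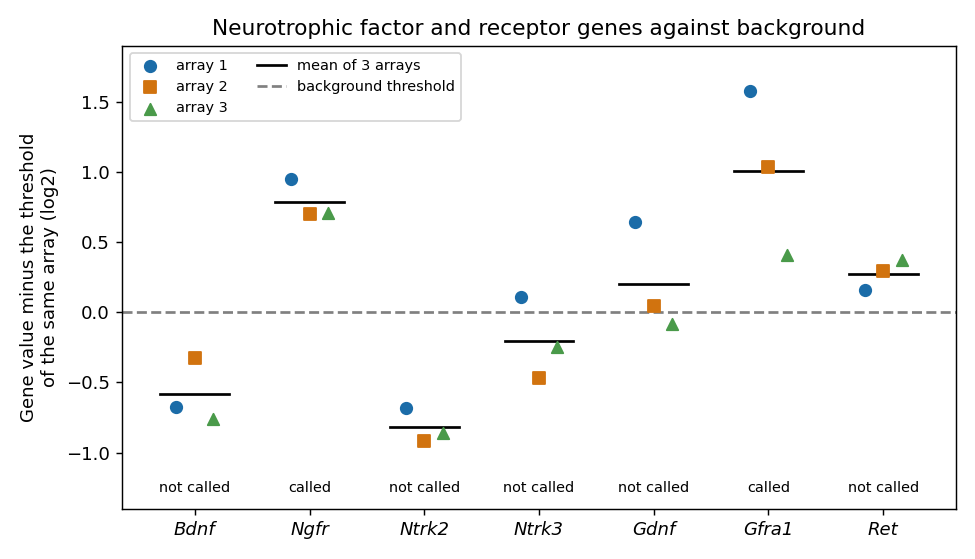
Value of each gene on arrays 1, 2 and 3 minus the background threshold of the same array, in log2 units, with the mean as a bar and 0 as the threshold. Points of Ngfr and Gfra1 lie above 0 on every array and those genes were called. Ret also lies above 0 on every array but was not called, and all points of Bdnf and Ntrk2 lie below 0.

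Among the neurotrophin receptors, the p75 receptor gene was the one above background. Ngfr, which encodes p75, had 6.35, 6.36 and 6.35 on arrays 1, 2 and 3. All of these values exceeded the thresholds, and they were nearly the same on each array. The mean was 6.35 ± 0.0055 (SD, n = 3), a margin of 0.79 ± 0.18 (SE) over the threshold (adjusted p = 0.00318, limma). The small SD rests on 1 probeset, the middle one of 9, whose own values were the gene's median on every array. Its values on arrays 1 and 3 were both 6.3502. On each array that probeset lay below the threshold for single probesets introduced further on.

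The genes of the 2 Trk receptors measured here were not called. Ntrk2, which encodes TrkB, the receptor of BDNF, had 4.72, 4.74 and 4.78. All of these lay below the thresholds, and the mean margin was -0.82 ± 0.18 (SE; adjusted p = 1, limma). Ntrk3, which encodes TrkC, the receptor of neurotrophin-3, had 5.51, 5.19 and 5.39. It was above the threshold on array 1 and below it on arrays 2 and 3, with a mean margin of -0.20 ± 0.20 (SE; adjusted p = 1, limma).

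The ligand gene Bdnf was not called either. Bdnf encodes brain-derived neurotrophic factor and had 4.73, 5.33 and 4.88 on arrays 1, 2 and 3. It lay below the threshold on all 3 arrays, with a mean margin of -0.59 ± 0.19 (SE; adjusted p = 1, limma). Single probesets of this gene behaved otherwise and are described further on.

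In the GDNF system the co-receptor gene was called, and the ligand and the kinase were near the threshold. Gfra1, which encodes the co-receptor of GDNF, had 6.98, 6.69 and 6.05 on arrays 1, 2 and 3. Every array was above its threshold, array 3 by the least. The mean was 6.57 ± 0.47 (SD, n = 3) and the margin 1.01 ± 0.24 (SE; adjusted p = 0.00406, limma). Gfra1 had the widest spread of the 7 genes, with a range of 0.93 between arrays, compared with a median range of 0.51 over all genes tested. Of all genes, 18.9% had a wider range.

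Ret had 5.56, 5.95 and 6.01, above the threshold on all 3 arrays by small amounts. Its margin of 0.28 ± 0.18 (SE) did not pass (adjusted p = 0.149, limma). Gdnf, the ligand gene, had 6.05, 5.70 and 5.56. It was above the threshold on arrays 1 and 2 and below it on array 3, with a margin of 0.20 ± 0.21 (SE; adjusted p = 0.312, limma). When its probesets were averaged instead of taking their median, the margin of Gdnf was 0.40 and it was called (adjusted p = 0.0282, limma).

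The calls of Ngfr and Gfra1 held without any 1 of the arrays, with adjusted p up to 0.016 for Ngfr and up to 0.0345 for Gfra1 (limma). They depended on the background chosen. A second background of 77 genes restricted to other tissues, such as liver, retina, testis and pancreas, gave thresholds of 6.64, 6.52 and 6.60, and 0 of the 7 genes were called against it (limma; 24.2% of all genes were). At those thresholds 0 of the 7 also had an unadjusted p below 0.05, since every mean margin was negative, from -1.84 for Ntrk2 to -0.01 for Gfra1.

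The arrays carry several probesets for each gene, so the same test was run on single probesets, over all 318760 with 1 gene symbol. The thresholds were the 95th percentile of the 2111 probesets of the chemosensory genes, 7.21, 7.38 and 7.16 on arrays 1, 2 and 3. Of the 145 probesets of the 7 genes, 8 were called (5.52%), compared with 18.2% of all probesets. Above the thresholds on all 3 arrays lay 15 of the 145 (10.3%), compared with 24.8% of all. The 8 called probesets belonged to 4 genes, with 2 each in Bdnf, Ngfr, Gdnf and Gfra1. Having at least 1 called probeset was thus seen in 57.1% of these genes and in 66.1% of all genes tested. The count of 8 was 3 without array 1, 3 without array 3 and 7 without array 2.

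Bdnf combined a median below the threshold with a pair of called probesets. Brightest refers here to the margin over the threshold, to which probe affinity contributes. The brightest of its 20 probesets had 9.22, 9.23 and 9.32 on arrays 1, 2 and 3, and the second 8.69, 9.25 and 8.96. Both lay above the probeset thresholds on each array, with margins of 2.01 ± 0.19 and 1.71 ± 0.20 (SE; adjusted p = 0.00222 and 0.00378, limma). The next one had 7.36, 7.87 and 7.79, also above on all 3 arrays, but was not called (adjusted p = 0.215, limma). The other 17 probesets of Bdnf lay above the threshold on 0 arrays, and the brightest of those averaged 6.14 ± 0.33 (SD, n = 3). The called pair stayed called when any 1 array was left out. Neither of the pair was called against the 99th percentile of the chemosensory probesets, which was 8.78, 9.03 and 9.05 on arrays 1, 2 and 3. Against the probesets of the other-tissue background, 1 of the 145 was called, the brightest of Bdnf, compared with 8.34% of all probesets. Which part of the transcript each probeset reads is not in the tables used here.

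Gdnf also had called probesets beside a median that did not pass. The brightest of its 10 probesets had 8.71, 8.57 and 8.78, and the second 8.23, 8.37 and 7.72, with margins of 1.43 ± 0.20 and 0.85 ± 0.21 (SE; adjusted p = 0.0067 and 0.0358, limma). Both were above threshold on every array, and 6 of the 10 were above it on none. The count of called Gdnf probesets was 1 without any 1 of the arrays. Bdnf and Gdnf are thus 2 of the 5 genes not called by their median that had a called probeset. Among all 9317 genes not called, 41.1% had at least 1.

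In Ngfr 4 of 9 probesets were above threshold on all 3 arrays and the other 5 on none. Its 2 called probesets had 8.33, 8.03 and 8.77, and 8.39, 8.40 and 8.25, with margins of 1.12 ± 0.26 and 1.09 ± 0.18 (SE; adjusted p = 0.0311 and 0.0116, limma). In Gfra1 the called probesets had 8.64, 8.27 and 8.71, and 8.25, 7.86 and 8.49, with margins of 1.29 ± 0.23 and 0.95 ± 0.25 (SE; adjusted p = 0.0136 and 0.0445, limma). These 2 were lowest on array 2, where the endothelial genes were lowest too, whereas the gene's median was lowest on array 3. The first called Ngfr probeset and the brightest Gdnf probeset were also lowest on array 2. Both called Bdnf probesets were lowest on array 1, and the second called probesets of Ngfr and Gdnf on array 3. Of all genes tested, 32.9% had their lowest median there on array 2, and the share over all probesets was not computed. The part of endothelial cells in these probesets was not tested. Without array 1 or without array 3, the number of called probesets was 0 for Ngfr and 0 for Gfra1.

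Ntrk2, Ntrk3 and Ret had 0 called probesets among 34, 28 and 30 by limma, with 1 probeset each above threshold on all 3 arrays. The brightest Ntrk2 probeset had 7.82, 7.74 and 7.74 (unadjusted p = 0.024, adjusted p = 0.114, limma). The brightest Ntrk3 probeset had 7.45, 7.86 and 7.56 (adjusted p = 0.233, limma). The brightest Ret probeset had 7.08, 7.73 and 8.42 (adjusted p = 0.402, limma), below threshold on array 1 and highest on array 3. Some probesets of these genes differed widely between arrays. One of Ntrk2 had 8.87, 4.60 and 5.97 on arrays 1, 2 and 3, and one of Ret had 8.09, 8.14 and 5.73. Of the 30 Ret probesets, 8 were above threshold on 1 or 2 arrays only.

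**Figure D2:**
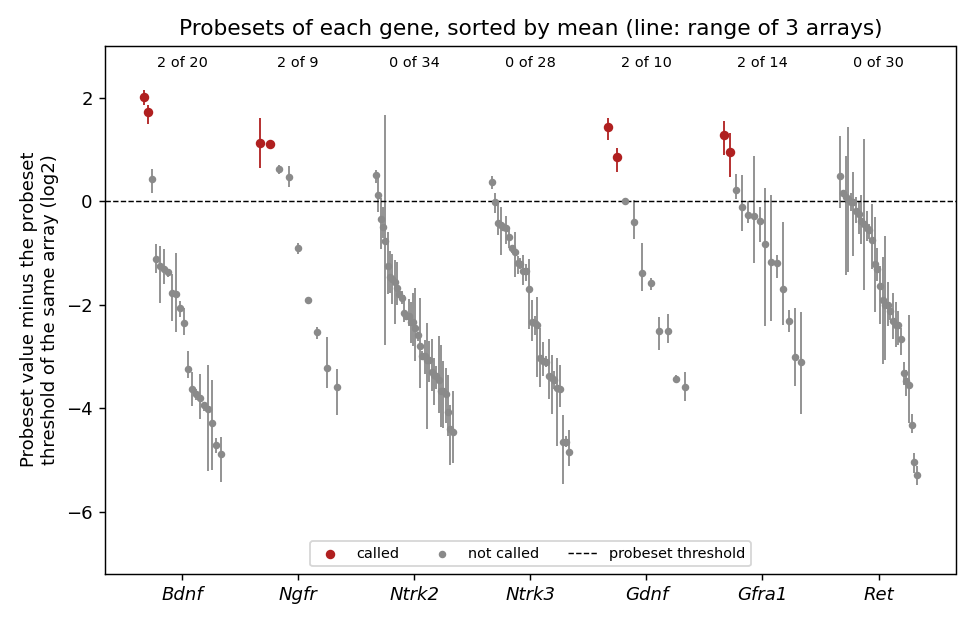
Each probeset of the 7 genes, sorted within a gene by its mean over the 3 arrays, as value minus the probeset threshold of the same array in log2 units, with a line for the range of the 3 arrays. Called probesets, in red, number 2 each in Bdnf, Ngfr, Gdnf and Gfra1, and Bdnf shows a gap between its 3 brightest probesets and the other 17.

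The rest of both receptor systems gave a mixed picture. Of 8 measured other neurotrophin genes 4 were called, with 50.6% called among all genes. Tnfrsf19, which encodes the p75-related receptor TROY, had 8.73, 8.42 and 8.75, and 10 of its 16 probesets were called. Its margin was 3.07 ± 0.20 (SE; adjusted p = 2.18e-06, limma). TROY, p75 and LINGO-1 are known as partners of the Nogo receptor in neurons. The LINGO-1 gene Lingo1 had 7.13, 7.09 and 7.00 (adjusted p = 8.76e-05, limma). The Nogo receptor gene Rtn4r had 6.37, 6.35 and 6.49 (adjusted p = 0.00225, limma). The fourth call was Sort1, the gene of sortilin, which binds proneurotrophins together with p75. Sort1 varied between arrays, with 6.96, 6.08 and 7.17 (adjusted p = 0.00246, limma). It was lowest on array 2, as the endothelial genes were. So were 4 of the 8 genes of this list in all, Tnfrsf19 and Rtn4r among them, compared with 32.9% of all genes tested. The part of endothelial cells in these values was not tested. The sortilin-related genes Sorcs1, Sorcs2 and Sorcs3 averaged 4.43, 5.79 and 5.15 and did not pass, nor did the neurotrophin-4 gene Ntf5, at 5.37. Against the other-tissue background Tnfrsf19 (adjusted p = 9.69e-05, limma) and Lingo1 (adjusted p = 0.0323, limma) remained called.

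Of 9 measured other genes of the GDNF family system 3 were called (33.3%). Nrtn, which encodes the ligand neurturin, had 6.90, 6.68 and 6.35 on arrays 1, 2 and 3 (adjusted p = 0.00132, limma). Like Gfra1 it was highest on array 1 and lowest on array 3. Ncam1, whose product can bind GDNF without Ret, had 6.61, 7.15 and 6.70 (adjusted p = 0.000286, limma). Sdc3, which encodes a heparan sulfate proteoglycan that binds GDNF, had 7.66, 7.39 and 7.30 (adjusted p = 3.66e-05, limma). The co-receptor genes Gfra2, Gfra3, Gfra4 and Gfral averaged 4.91, 5.54, 5.40 and 3.42, and none of these 4 was called. The ligand genes Artn, at 5.14, and Gdf15, at 5.57, did not pass either. Sdc3 was the 1 gene of this list that also passed the other-tissue background (adjusted p = 0.0038, limma).

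Of 19 measured genes of adaptors that bind Trk, p75 or Ret receptors 15 were called (78.9%), with a median margin of 1.66. Most of these adaptors also serve other receptors. Maged1, whose product binds p75, had 9.64, 9.33 and 9.22 on arrays 1, 2 and 3. Bex3, which encodes another p75-binding protein, had 9.18, 9.35 and 8.04, and the docking protein gene Gab1 had 9.31, 8.61 and 8.27. Dok6, which encodes a Ret-binding adaptor, had a mean of 4.15 and was not called. Among 10 measured genes of proteases that cut proneurotrophins, and of their regulators, 3 were called, namely the convertase genes Furin (7.03, 7.41 and 7.00), Pcsk5 (6.81, 6.19 and 6.92) and Pcsk7 (6.30, 6.29 and 6.10). The protease gene Mmp3 had a mean of 3.95 and was not called.

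Receptors of the neuropoietic cytokines, a separate family that also keeps neurons alive and can change the transmitter of sympathetic neurons, were called. Of 9 measured genes of that family 6 passed, and 3 of these also passed the other-tissue background. Il6st, for the shared receptor gp130, had 11.12, 10.51 and 10.99, Lifr had 10.18, 10.58 and 9.83, and Osmr had 9.39, 9.91 and 9.83. Most probesets of each were called, from 85.2% in Osmr to 92.3% in Lifr. Ligand genes were split. Osm, Lif and Il11 had means of 4.35, 4.75 and 5.69 and were not called. Ctf1 had 6.28, 7.25 and 7.16 (adjusted p = 0.000382, limma) and was called. So was Clcf1, with 6.24, 6.24 and 6.25 (adjusted p = 0.00673, limma). Neither of these passed the other-tissue background. Lif, Il11, Ctf1 and Clcf1 were named after their values were seen. Of 6 genes of other neurotrophic proteins 4 were called. Manf, an endoplasmic reticulum protein with neurotrophic activity, had 9.65, 9.68 and 9.85, and Nenf, which encodes neudesin, had 9.20, 9.29 and 8.87. Ptn, which encodes pleiotrophin, had 9.25, 9.34 and 7.86, again lowest on array 3, and Nrg1, the neuregulin-1 gene, had a mean of 5.31 and was not called. Over all 6 pathway lists 35 of 61 measured genes were called (57.4%).

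**Figure D3:**
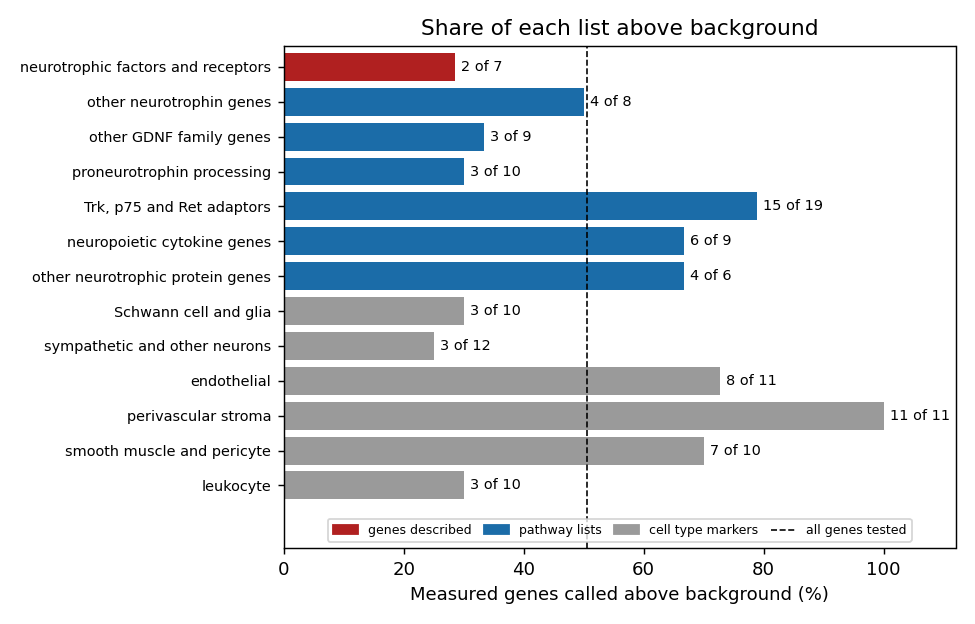
Percentage of measured genes called above the chemosensory background in the 7 neurotrophic factor and receptor genes, in 6 lists of related genes and in 6 lists of cell type markers, with the count at each bar. The dashed line is the share among all genes tested, 50.6%, and the 7 genes lie below it with 2 called.

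Nerve and glial cells use most of these genes, so their markers were read beside the results. Of 10 measured Schwann cell and glial genes 3 were called, and their list's median was 5.21, 5.16 and 5.20 on the arrays in turn. Pmp22, a myelin gene that many mesenchymal cells also express, had 9.65, 9.44 and 9.14, S100b had 7.92, 7.75 and 6.34, and the neural crest factor Sox10 had 6.41, 6.67 and 6.53. Cdh19, a marker of Schwann cell precursors, had 3.04, 3.18 and 2.57 and was not called. Gfra1 and Gdnf were highest on array 1 and lowest on array 3, with array 2 between, as were 3 of the 10 glial genes, S100b, Pmp22 and Erbb3. The same order held for 4 of 10 smooth muscle and pericyte genes, 2 of 10 leukocyte genes and 0 of 11 endothelial genes. It also held for 1 of 11 perivascular stroma genes and 2 of 12 genes of sympathetic and other neurons. Outside the marker lists it held for 4 of 10 proneurotrophin processing genes, and for 18.5% of all genes tested. The 4 pericyte and smooth muscle genes were Rgs5 (8.39, 8.25 and 6.37), Notch3, with a mean of 7.70, Myh11 (6.54, 6.26 and 5.69) and Cspg4 (6.12, 5.96 and 5.52). Erbb3, Myh11 and Cspg4 were named after their values were seen. The part of any of these cell types in the values of Ngfr and Gfra1 was not tested.

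Of 12 measured genes of sympathetic and other neurons 3 were called, Phox2a, Tubb3 and Nefm, with margins of 0.55, 0.45 and 0.44. The calls of Tubb3 and Nefm were lost without any 1 of the arrays, and that of Phox2a was lost without array 1 (adjusted p = 0.186, limma). Snap25, a synaptic gene, had a mean of 4.11 and was not called. The list's median was 5.31, 5.31 and 5.14, and 0 of its genes passed the other-tissue background by limma. Of the 10 smooth muscle and pericyte genes 7 were called. On array 2, where all measured endothelial genes were lowest, 1 of the 7 genes described, Ntrk3, had its lowest value, as did 32.9% of all genes tested. In these bulk samples fewer cells of a type and less RNA per cell cannot be told apart.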

How the data were processed

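The deposited table held log2 expression values of 1256831 probesets on 3 arrays, which the authors computed by RMA in Affymetrix Expression Console 1.1, per the submitters' processing notes. No RMA settings or annotation build are stated there, and scanner intensities and scan dates were not used. RNA was amplified before hybridisation, per the labels' protocols. Probesets were named from the platform annotation, which gave 1 symbol for 318760 of them, and older symbols were updated through a RefSeq table (GRCm38.p6). Genes needed at least 4 probesets. Margins over the array thresholds were fitted with limma 3.58.1 in R 4.3.3 as an intercept, with one-sided tests and Benjamini-Hochberg adjustment across all genes or all probesets. On simulated data with 18865 genes calls were made for 32 of 50 genes set 0.5 above the threshold, for 44 of 50 set 1 above and for 1 of 50 set at it. Of 6752 genes at or below it, 20 were called. The simulation drew errors independently for each gene and took the threshold as known. It thus did not cover error in the threshold, which all genes on an array share. The number of arrays limits the precision.

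The members, lists and tests were chosen with earlier results of these data known. Named genes were all measured genes of the neurotrophin and GDNF lists, and of each other list up to 3 called genes with the largest margin and the 1 gene with the smallest. Genes named after their values were seen are marked as such. Alternatives covered the probeset summary, the minimum number of probesets, the background, the percentile, probesets at 0, array centring, limma's prior and each array left out.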

Additional observations from a re-analysis of the deposited data

How the results depend on the processing

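Against 9548 genes called, the 99th percentile of the chemosensory genes gave 3797 and the other-tissue background 4572. The 2 called members became 0 under the 99th percentile, the other-tissue background and a minimum of 1 probeset, which brings genes with fewer probesets into the background. They became 4 at the 90th percentile, which added Gdnf (adjusted p = 0.0124, limma) and Ret (adjusted p = 0.00421, limma). The 35 calls in the pathway lists became 17 under the 99th percentile and 20 under the other-tissue background. The 58172 called probesets became 13077 and 26570 under these settings, and the 8 called member probesets became 0 and 1, or 15 when counted without a model as above the threshold on all 3 arrays. Leaving out 1 array gave 3 to 7 member probesets. At the 99th percentile, margins of called genes turned negative for Ngfr (-0.44), Gfra1 (-0.22), Sort1 (-0.055), Rtn4r (-0.39), Nrtn (-0.15), Pcsk5 (-0.15), Pcsk7 (-0.56), Sox10 (-0.25), Phox2a (-0.68), Tubb3 (-0.77), Nefm (-0.79), Rac2 (-0.12) and Hcls1 (-0.55). Against the other-tissue background they did so for Ngfr (-0.23), Gfra1 (-0.013), Rtn4r (-0.18), Pcsk7 (-0.36), Sox10 (-0.049), Phox2a (-0.47), Tubb3 (-0.57), Nefm (-0.58) and Hcls1 (-0.34), and with at least 1 probeset for Tubb3 (-0.033) and Nefm (-0.044). The 99th percentile raises the threshold by construction. The other-tissue background and the minimum of 1 probeset also had higher thresholds on each array, and the cause was not tested. Array centring and leaving out probesets at 0 changed no margin, since margins are taken within an array and no named probeset was at 0. No paired analysis was possible because the 3 arrays form 1 group.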
